A study of Mus musculus with 9 samples.

Results

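Calcium and magnesium that escape reabsorption in the earlier nephron are recovered in the distal convoluted tubule and the connecting tubule. Here 10 genes of calcium and magnesium handling, most of them of this step, were compared between young and old mouse kidneys. They were chosen by symbol: the entry channels Trpv5 and Trpm6, the calcium buffers Calb1, S100g and Pvalb, the exporters Slc8a1 and Atp2b1, the calcium sensor Casr, the magnesium protein Cnnm2, and Egf. All 10 were measured, out of 19938 genes represented by at least 1 probe set with exactly 1 gene symbol, and the brightest probe set over the arrays stood for a gene. Whole kidneys came from female wild type mice of mixed FVB/C57BL6 background, 4 of them 14 weeks old and 5 of them 96 weeks old. The labels name no transgene and no treatment. The methods name 5 mice at each age, whereas 4 arrays are labelled 14 weeks, and 9 labelled arrays were used. Values are log2 expression after the robust multi-array average (RMA), so that a difference of 1 is a doubling. The standard error of a log2 fold change is abbreviated SE. A gene was said to have risen or fallen only where the adjusted p of limma, over all genes, was under 0.05. The p-values set the difference between the ages against the spread between these samples, which the labels number as replicates.

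In the distal nephron calcium enters the cell through the apical channel Trpv5, is carried across the cytosol by calbindins, and leaves at the blood side through the sodium-calcium exchanger and the plasma membrane calcium pump. Magnesium enters through the channel Trpm6, whose activity is raised by epidermal growth factor made in the same part of the nephron. Parathyroid hormone and active vitamin D are known to stimulate the calcium route, and loss of Trpm6, Cnnm2 or the Egf precursor's function causes renal magnesium wasting in people.

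Over all 19938 genes 860 were higher and 479 lower at 96 weeks, and quantile normalization run once more changed this split to 484 higher and 505 lower. Replicate 3 at 96 weeks stood apart by injury markers. Its tubular injury marker Havcr1 was at 9.47, against 6.40 to 7.25 in the other 4 old kidneys, and its Lcn2 was at 9.68, against 6.90 to 7.52. Results are therefore given with and without this kidney. Limma's array weight, which is lower for an array that deviates more over all genes, was 0.93 for replicate 3. It was lowest, at 0.58, for replicate 4 at 96 weeks. Markers of the labelled tissue were present in every array: the thick ascending limb gene Umod had a mean of 12.85 at both ages, and the distal convoluted tubule gene Slc12a3 had a mean of 11.61 at 14 weeks and 11.70 at 96 weeks.

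Of the 10 genes, Slc8a1 fell and the other 9 did not pass the test. Slc8a1 was 1.64-fold lower at 96 weeks, and it was also the only one of the 10 past a 1.5-fold change with an unadjusted p under 0.05. Over all genes 6.72% passed the adjusted threshold in either direction, 2.4% passed it as lower and 4.31% as higher, and 1.6% passed the 1.5-fold rule, so 1 of 10 is near the background. Mean values were lower at 96 weeks for 7 of the 10 genes, against 56.64% of all genes, and higher for 3, and the median log2 fold change was -0.30, against -0.026 over all genes. Without replicate 3 at 96 weeks 5 were lower and 5 higher, with a median of -0.071. For 2 of the 10, Slc8a1 and Calb1, every old kidney lay below every young one, as was so for 5.79% of all genes. An unadjusted p under 0.05 was reached by 3 of the 10, Slc8a1, Trpv5 and Calb1, and by 28.55% of all genes.

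**Figure D1:**
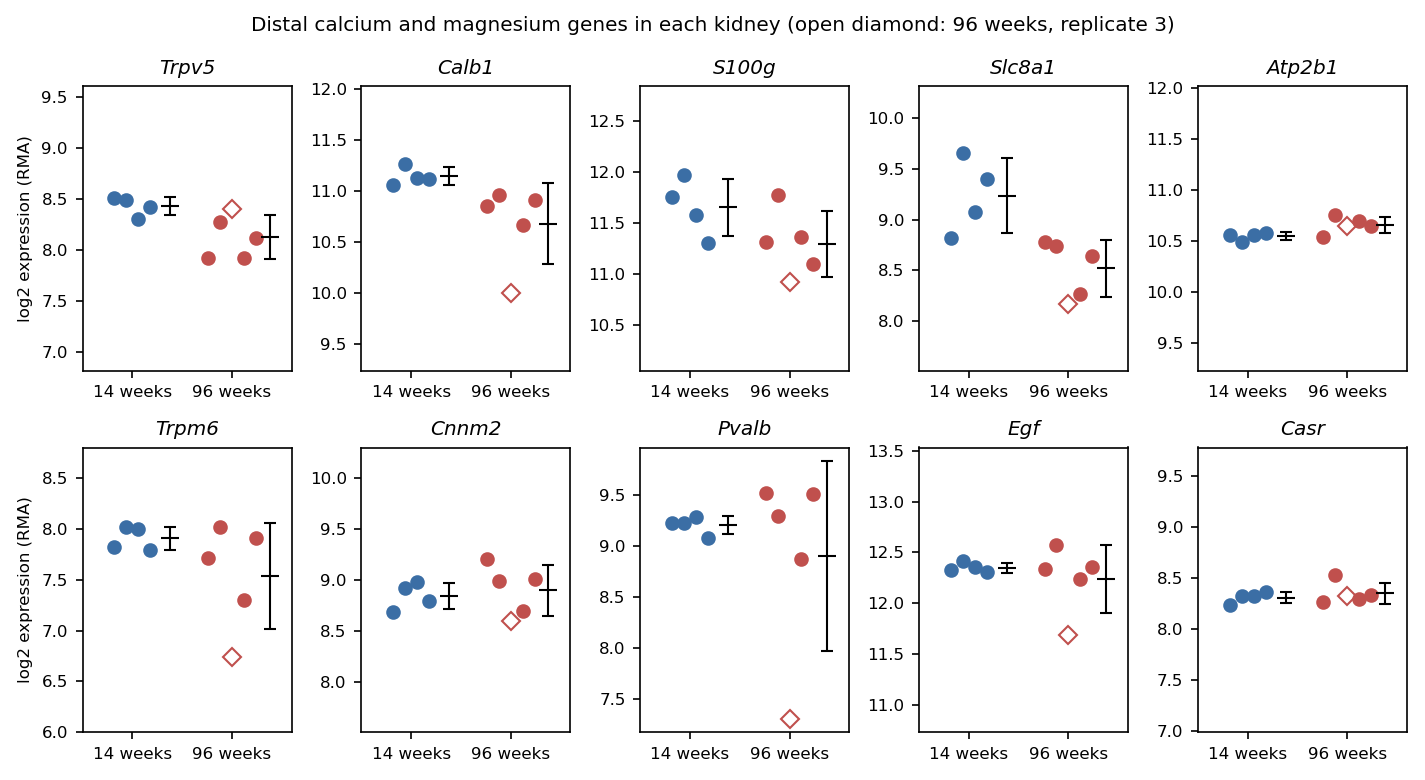
RMA log2 expression of the 10 genes in 4 kidneys at 14 weeks (blue) and 5 at 96 weeks (red). Points are kidneys, the bar is the mean with 1 SD, and all panels span the same number of log2 units. Groups do not overlap for Calb1 and Slc8a1, and replicate 3 at 96 weeks (open diamond) is lowest for Pvalb at 7.31 and for Trpm6 at 6.74, while for Trpv5 it is the highest old kidney at 8.40.

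Slc8a1 encodes the sodium-calcium exchanger NCX1, which moves calcium out of the distal tubule cell at the blood side and is also abundant in heart and smooth muscle. Its log2 values at 14 weeks were 8.82, 9.65, 9.08 and 9.40, and at 96 weeks 8.78, 8.74, 8.17, 8.27 and 8.65. The lowest young kidney and the highest old one lay close together, and replicates 3 and 4 were the lowest of the old. Slc8a1 fell by 0.71 on the log2 scale (SE 0.18, 95% interval -1.117 to -0.31, limma adjusted p = 0.044). Without replicate 3 at 96 weeks the log2 fold change was -0.63 (limma adjusted p = 0.073), and without replicate 2 at 14 weeks, the highest kidney, it was -0.58 (limma adjusted p = 0.10), which is under 1.5-fold. The direction was the same in all 21 alternative settings, but the adjusted p was above 0.05 in 15 of them, with a range of 0.029 to 0.12.

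A second, dimmer probe set of Slc8a1 read 8.35, 9.005, 8.46 and 8.50 at 14 weeks and 8.51, 8.53, 8.03, 8.03 and 8.49 at 96 weeks. Here the ages overlapped, with replicate 2 the highest young kidney and replicates 3 and 4 the lowest old ones, as on the brighter probe set. On this probe set the ages differed by -0.26 (SE 0.17, limma adjusted p = 0.34 over all probe sets), and the mean of both probe sets gave -0.49 (limma adjusted p = 0.098). The fall of Slc8a1 therefore rested on the brighter probe set and did not pass when both were averaged. Replicate 2 at 14 weeks was also the young kidney in which 5 adipocyte markers were highest on average. It lay 0.35 above the mean of all arrays on the log2 scale, against -0.14 to 0.019 in the other young kidneys. Replicate 4 at 14 weeks, the next highest for Slc8a1, had the lowest young mean of these markers (-0.14). In the old kidneys this mean ranged from -0.25 to 0.067, and replicates 3 and 4 were at 0.039 and 0.067. Of 8 markers of fibroblasts, pericytes and smooth muscle 1 fell, the smooth muscle myosin Myh11 (log2 fold change -0.48, limma adjusted p = 0.019), and 3 had an unadjusted p under 0.05. The others of these 3, the smooth muscle genes Acta2 and Tagln, had the opposite sign and did not pass (log2 fold changes 0.33 and 0.16, limma adjusted p = 0.095 and 0.15). The range of this list's mean was -0.091 to 0.023 at 14 weeks and -0.16 to 0.16 at 96 weeks. The part of these cells in the Slc8a1 values was not tested, and in whole kidney fewer cells of a type and less RNA per cell cannot be told apart.

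The 250 bases before the start of Slc8a1, the only 1 of the 10 that passed, are shown with those of Trpv5 and S100g, which belong to the vitamin D responsive calcium route. They are from the RefSeq promoter table (GRCm38.p6, which holds 12 promoters of 9 of the 10 genes; Calb1 had no entry) and run 5′ to 3′ on the gene's strand. The windows lie at chr17:81738388-81738637, chr6:41680724-41680973 and chrX:162964600-162964849, all on the minus strand. Capitals mark matches, on either strand, to 4 sets of letters. These are AGGTCA, with the variants GGGTCA and also GGTTCA, which are core letters of nuclear receptor sites, and the TATA box letters TATAAA.
Slc8a1: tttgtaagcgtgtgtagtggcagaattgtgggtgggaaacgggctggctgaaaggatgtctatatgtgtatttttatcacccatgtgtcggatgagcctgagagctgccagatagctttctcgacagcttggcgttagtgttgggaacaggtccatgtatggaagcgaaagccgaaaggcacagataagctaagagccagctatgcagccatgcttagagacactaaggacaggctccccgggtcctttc
Trpv5: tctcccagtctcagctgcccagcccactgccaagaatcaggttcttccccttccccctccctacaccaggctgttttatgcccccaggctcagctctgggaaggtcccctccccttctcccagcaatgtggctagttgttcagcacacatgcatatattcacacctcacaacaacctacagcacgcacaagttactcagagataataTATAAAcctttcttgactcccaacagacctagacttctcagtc
S100g: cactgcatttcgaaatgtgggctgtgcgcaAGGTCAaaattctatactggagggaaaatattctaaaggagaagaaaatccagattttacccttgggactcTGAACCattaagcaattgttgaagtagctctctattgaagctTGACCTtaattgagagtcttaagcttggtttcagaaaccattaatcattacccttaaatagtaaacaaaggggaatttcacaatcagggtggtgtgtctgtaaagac

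The Slc8a1 window held none of these letters. TATAAA began 43 bases before the start of Trpv5, and it occurs in 12.4% of 32851 promoter windows of the same length. The S100g window held AGGTCA from 220 bases before the start on the gene's strand and from 107 bases on the opposite strand, and GGTTCA from 149 bases on the opposite strand, and none of these matches overlapped. AGGTCA occurs in 14.0% of all windows and GGTTCA in 8.85%. GGGTCA (11.6% of all windows) was found, among the 9 genes with a promoter entry, in the window of Trpm6 alone, 75 bases before the start. A match is a description of the letters and not a bound site. Whether kidney cells use the listed starts of these genes was not tested.

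Trpv5, the apical channel through which calcium enters the cell, read 8.51, 8.49, 8.31 and 8.42 in the young kidneys and 7.92, 8.27, 8.40, 7.92 and 8.11 in the old. Of the old kidneys, 4 were below every young one and replicate 3 lay within the young range, so the groups overlapped by 1 kidney. The log2 fold change was -0.30 (SE 0.10, 95% interval -0.53 to -0.075, limma adjusted p = 0.097). Without replicate 3 it was -0.37 (SE 0.088, limma adjusted p = 0.043), and Trpv5 was then the only gene of the 10 to pass. It passed in none of the other 20 alternatives, where its adjusted p was up to 0.18. Its close relative Trpv6 differed by 0.076 (limma adjusted p = 0.58). Trpv6 was dim, with means of 5.68 at 14 weeks and 5.75 at 96 weeks, below the array medians of 6.22 to 6.29.

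Calb1, the gene of calbindin-D28k, the main calcium buffer of the distal tubule, read 11.06, 11.27, 11.13 and 11.12 at 14 weeks. At 96 weeks the values were 10.85, 10.96, 9.99, 10.67 and 10.92. All 5 old kidneys lay below all 4 young ones, and replicate 3 was the lowest by a wide margin. The difference between the ages was -0.47 (SE 0.17, 95% interval -0.86 to -0.083, limma adjusted p = 0.12). Without replicate 3 it was smaller, -0.30, with a smaller standard error of 0.076 (limma adjusted p = 0.054), and it was negative but missed the threshold in all 21 alternatives.

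S100g, the gene of calbindin-D9k, a smaller vitamin D dependent calcium carrier, read 11.76, 11.97, 11.58 and 11.30 in young kidneys and 11.31, 11.78, 10.92, 11.37 and 11.09 in old ones. The ages overlapped, with replicate 2 the highest kidney at each age and replicate 3 the lowest of the old. On average the old kidneys differed from the young by -0.36 (SE 0.17, 95% interval -0.74 to 0.029, limma adjusted p = 0.20), and -0.26 without replicate 3. Atp2b1, the plasma membrane calcium pump PMCA1, which works beside the exchanger, read 10.55, 10.49, 10.56 and 10.58 at 14 weeks and 10.54, 10.76, 10.65, 10.70 and 10.65 at 96 weeks. It had the opposite sign, with 4 of 5 old kidneys above every young one and replicate 1 within the young range. The mean difference came to 0.11 (SE 0.053, 95% interval -0.0061 to 0.23, limma adjusted p = 0.19), the same to 2 decimals without replicate 3.

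**Figure D2:**
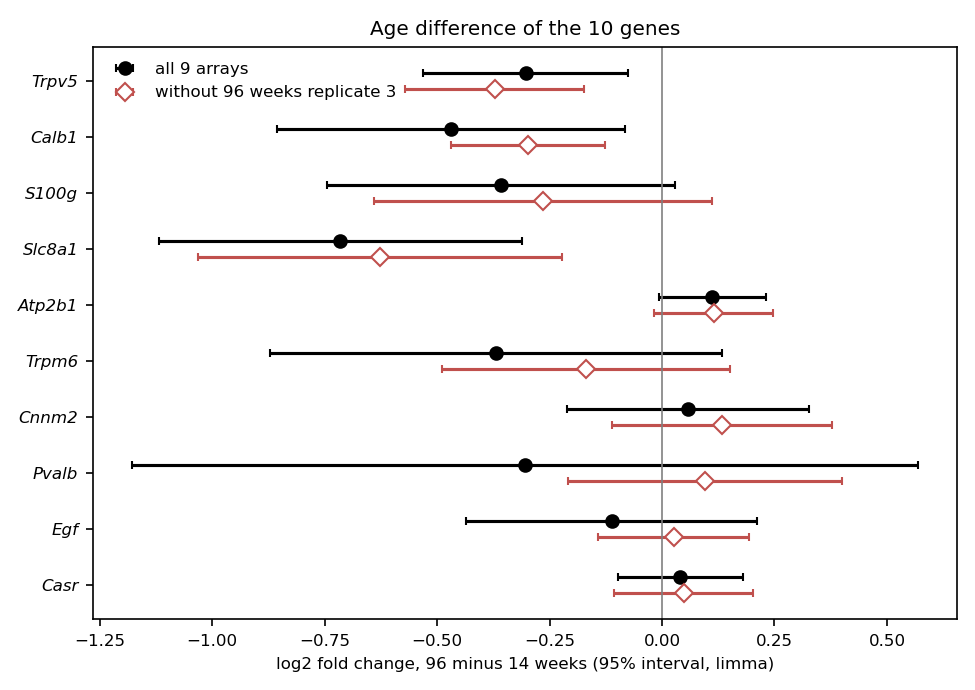
Log2 fold change, 96 minus 14 weeks, of the 10 genes with its 95% interval from limma, over all 9 arrays (filled circles) and without replicate 3 at 96 weeks (open diamonds). Intervals are not adjusted for the number of genes. Pvalb has the widest interval over all arrays, from -1.18 to 0.57, and Pvalb and Egf move to the other side of 0 without that kidney.

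Casr, the calcium-sensing receptor, which in the kidney acts mainly in the thick ascending limb, read 8.23, 8.32, 8.32 and 8.36 in young kidneys and 8.26, 8.53, 8.32, 8.29 and 8.33 in old ones. Old values lay among the young except for replicate 2, which was above them all. Old minus young, this is 0.041 (SE 0.063, 95% interval -0.098 to 0.18, limma adjusted p = 0.68) and 0.048 without replicate 3, and its sign turned with quantile normalization run again (-0.055), after cyclic loess (-0.024) and without replicate 2 at 96 weeks (-0.0058).

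The magnesium genes Trpm6, Cnnm2 and Egf and the calcium buffer Pvalb had their lowest old values in replicates 3 and 4, as Calb1 and Slc8a1 also had. Trpm6, the apical magnesium channel, read 7.82, 8.01, 7.998 and 7.79 at 14 weeks and 7.71, 8.02, 6.74, 7.30 and 7.91 at 96 weeks. Replicates 3 and 4 were far below every young kidney, replicate 1 was slightly below them, and replicates 2 and 5 lay at the level of the young. The mean log2 difference was -0.37 (SE 0.23, 95% interval -0.87 to 0.13, limma adjusted p = 0.30), and -0.17 without replicate 3.

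Pvalb, the gene of parvalbumin, a calcium buffer confined within the kidney to the early distal convoluted tubule, read 9.23, 9.23, 9.29 and 9.09 in the young kidneys and 9.53, 9.30, 7.31, 8.87 and 9.52 in the old. Replicates 3 and 4 were below the young kidneys and the other 3 old kidneys were above them. Over all arrays the log2 fold change was -0.30 (SE 0.39, 95% interval -1.18 to 0.57, limma adjusted p = 0.62). It turned to 0.095 without replicate 3 (95% interval -0.21 to 0.40) and to 0.24 without replicates 3 and 4 (limma adjusted p = 0.11).

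Cnnm2, a basolateral membrane protein needed for magnesium reabsorption, read 8.69, 8.92, 8.98 and 8.79 at 14 weeks and 9.21, 8.996, 8.60, 8.70 and 9.01 at 96 weeks. The old kidneys spread to both sides of the young range, with replicate 1 the highest, replicate 3 the lowest and replicate 4 the next lowest. The age difference was 0.057 (SE 0.12, 95% interval -0.21 to 0.33, limma adjusted p = 0.77), and 0.13 without replicate 3. The sign turned with quantile normalization run again (-0.022), after cyclic loess (-0.0056) and without replicate 1 at 96 weeks (-0.020).

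Egf, which encodes the precursor of the growth factor that stimulates Trpm6, was close to level in all kidneys but 1. It read 12.33, 12.42, 12.35 and 12.31 in the young kidneys and 12.34, 12.58, 11.68, 12.24 and 12.36 in the old. Replicate 3 was well below all others, replicate 4 was slightly below the young range, and replicate 2 was the highest of all. For Egf the fold change on the log2 scale was -0.11 (SE 0.15, 95% interval -0.44 to 0.21, limma adjusted p = 0.62). It was 0.026 without replicate 3 (95% interval -0.14 to 0.19) and 0.073 without replicates 3 and 4.

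The old kidneys thus differed among themselves. The SD at 96 weeks was more than 3 times that at 14 weeks for 4 of the 10 genes and 14.2% of all genes. The SDs at 96 and 14 weeks were 0.93 and 0.086 for Pvalb, 0.33 and 0.049 for Egf, 0.40 and 0.088 for Calb1, and 0.52 and 0.12 for Trpm6. Without replicate 3 the number was 1 of 10, and 13.81% of all genes. Replicate 3 was the lowest old kidney for 7 of the 10 genes, against 19.32% of all genes. It lay over 0.5 below the median of the other 4 old kidneys for 5 of them, against 0.998% of all genes. These were Pvalb (-2.10), Trpm6 (-1.07), Calb1 (-0.89), Egf (-0.66) and Slc8a1 (-0.52). Trpv5 went the other way in this kidney (0.38 above that median), and Atp2b1 (-0.025) and Casr (0.0074) did not stand out. Replicate 4 lay over 0.5 below the median of the other old kidneys for 2 of the 10 genes and 0.888% of all genes.

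**Figure D3:**
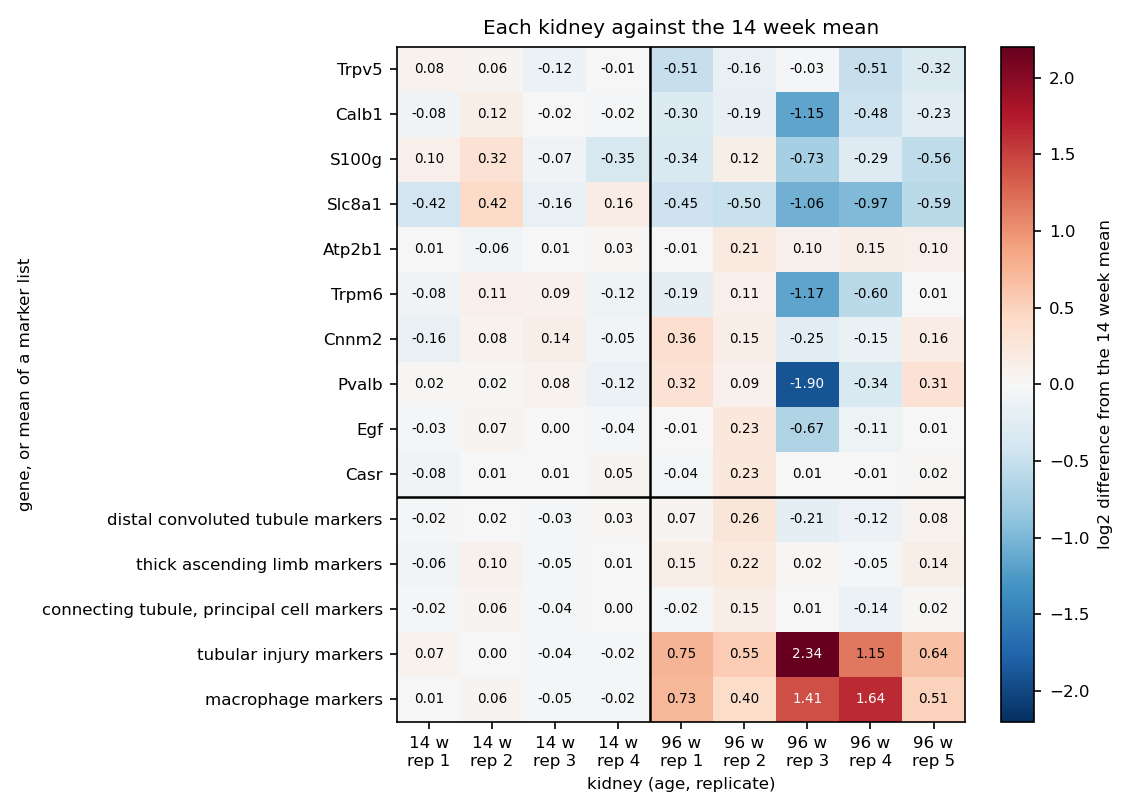
Log2 difference of each kidney from the 14 week mean for the 10 genes (above the line) and for the means of 5 marker lists (below it). Replicate 3 at 96 weeks is at -1.90 for Pvalb, -1.17 for Trpm6 and -1.15 for Calb1, while the tubular injury list is at 2.34 in that kidney and at 0.55 to 1.15 in the other old kidneys.

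Markers of other cells were compared beside these values, as means of log2 values relative to all arrays. The mean of 6 distal convoluted tubule markers lay between -0.036 and 0.026 at 14 weeks and between -0.22 and 0.25 at 96 weeks, lowest in replicate 3, and 0 of 6 passed the test (1 with an unadjusted p under 0.05). In replicate 3 the sodium chloride cotransporter Slc12a3 of these cells was at 11.27, against 11.58 to 12.01 in the other old kidneys, and its regulator Wnk4 was at 8.62, against 8.97 to 9.43. Replicate 3 was the lowest old kidney for 4 of these 6 markers, whereas Emx1 and Sall3 were not low in it (0.042 and 0.0035 above the median of the other 4 old kidneys). The thick ascending limb list (6 genes) ranged from -0.12 to 0.046 at 14 weeks and from -0.10 to 0.17 at 96 weeks, with 1 gene higher, Cldn19 (0 without replicate 3, where its limma adjusted p was 0.061). The list of the connecting tubule and principal cells (7 genes) ranged from -0.046 to 0.058 and from -0.14 to 0.14, with 0 passing limma (2 with an unadjusted p under 0.05). No defining marker of these segments was near the bottom of the scale in any kidney.

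The tubular injury list (6 genes) ranged from -0.65 to -0.53 at 14 weeks and from -0.051 to 1.74 at 96 weeks, highest in replicate 3, with 1 gene higher, Fabp1, and 5 with an unadjusted p under 0.05. Without replicate 3 there were 3 higher, Fabp1, Havcr1 (log2 fold change 0.92, limma adjusted p = 0.022) and Lcn2 (1.08, limma adjusted p = 0.0091). Of 9 macrophage and dendritic cell markers 3 were higher (2 without replicate 3), and the mean ranged from -0.57 to -0.46 and from -0.12 to 1.1165, highest in replicates 4 and 3. Of 7 B and plasma cell markers 2 were higher, and the mean ranged from -1.08 to -0.97 and from 0.20 to 1.63. Of 7 T and NK cell markers none passed limma, 3 had an unadjusted p under 0.05, and the mean ranged from -0.41 to -0.30 and from -0.42 to 1.39. The part of injury, of infiltrating cells or of the share of distal tubule in the lower values of Pvalb, Trpm6, Calb1, Egf and Slc8a1 was not tested.

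The rest of the pathway was described from 6 lists that hold 69 other measured genes. Of these, 4 rose, 1 fell and 24 had an unadjusted p under 0.05, and the median log2 fold change was 0.034. The share that passed, 7.25%, was close to the 6.72% of all genes. By log2 fold change the rise was 0.49 for Anxa2, an annexin that with S100a10 helps to bring Trpv5 to the membrane (limma adjusted p = 0.041). It was 0.45 for Calr, the calcium-binding chaperone calreticulin (adjusted p = 0.022), 0.38 for Gna11, a G protein subunit downstream of Casr (adjusted p = 0.041), and 0.31 for Cldn19, a claudin of the calcium and magnesium pathway between thick ascending limb cells (adjusted p = 0.044). Gprc6a, an amino acid and cation receptor of the same family as Casr, fell by 0.32 (limma adjusted p = 0.031). Gprc6a was dim, with means of 5.26 at 14 weeks and 4.94 at 96 weeks, below the array medians of 6.22 to 6.29. The filter on dim genes takes such genes out before the fit. That Gprc6a was not among those that passed there is therefore no test of its fall. Without replicate 3 the genes that passed were Calr, Cnnm4, Erbb4 and Gprc6a, and after cyclic loess Calr and Erbb4.

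By list, of 11 genes of calcium entry, buffering and extrusion 1 rose (Anxa2), and of 10 calcium hormone genes 1 rose (Gna11) and 1 fell (Gprc6a). Of 14 genes of magnesium transport none passed limma, and 4 had an unadjusted p under 0.05. The smallest p-values there were those of the transporter Slc41a2 (log2 fold change 0.32, limma adjusted p = 0.059) and of Arl15, which modifies Cnnm proteins (0.25, adjusted p = 0.060). Of 12 distal magnesium disease and potassium genes 1 rose (Cldn19), and Fxyd2, the gamma subunit of the sodium pump, stood at 0.27 (limma adjusted p = 0.055). Of 11 EGF ligands and receptors none passed limma and 3 had an unadjusted p under 0.05, the neuregulin receptor Erbb4 with a log2 fold change of -0.32 (adjusted p = 0.056, and 0.049 without replicate 3) and Erbb2 with 0.19 (adjusted p = 0.14) among them. Of 11 genes of intracellular calcium stores 1 rose (Calr), and the store-operated channel Orai1 stood at 0.16 (adjusted p = 0.25). Kl had the lowest log2 fold change of the 69, -0.37 (limma adjusted p = 0.079). It is the gene of klotho, a co-receptor for the phosphate hormone Fgf23 that also acts on Trpv5. Kl passed with quantile normalization run again and without replicate 2 at 96 weeks, and in no other alternative. Calm3, a calmodulin gene, had a log2 fold change of 0.16 (limma adjusted p = 0.081).

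**Figure D4:**
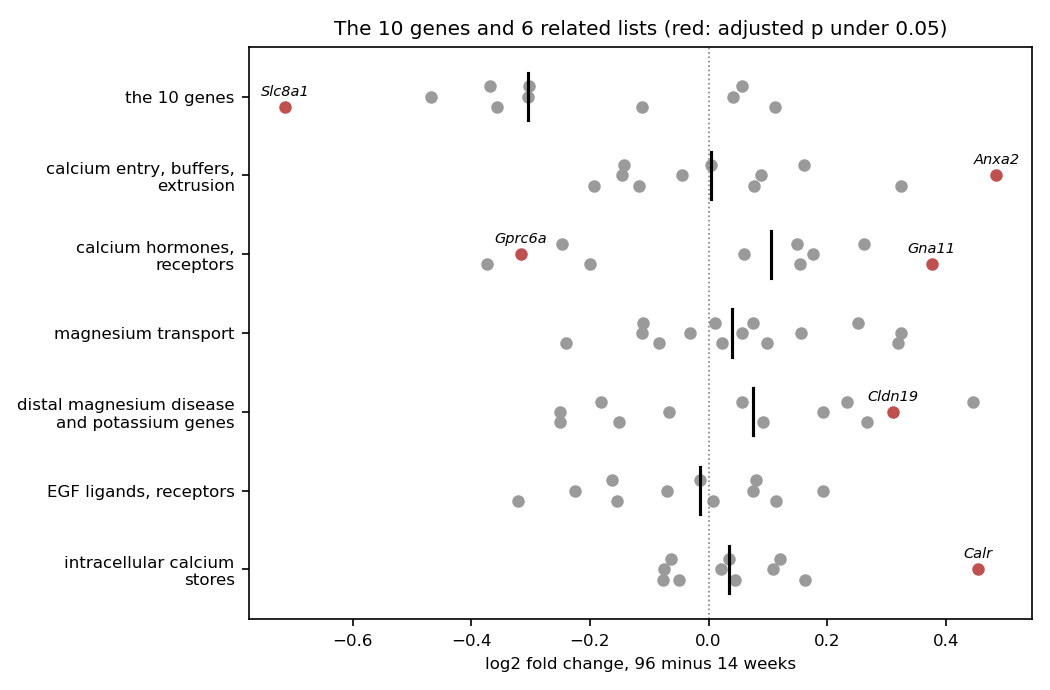
Log2 fold change, 96 minus 14 weeks, of the 10 genes and of the genes of 6 related lists. Points are genes, red where the adjusted p from limma was under 0.05, and the vertical bars are list medians. The median is -0.30 for the 10 genes and between -0.014 and 0.10 for the other lists.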

How the data were processed

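Kidney RNA was hybridized to Affymetrix Mouse Gene 1.0 ST arrays. The deposited values are log2 expression per probe set, made by the authors in Affymetrix Power Tools 1.12.0 (RMA with quantile normalization). No source used here gives the build behind the annotation. Of 35557 probe sets, 21789 had 1 gene symbol, 1621 several and 12147 none. Where a gene had several probe sets (999 genes) the brightest was kept, without a filter on dim genes. Signal over background was not given, and precision is limited by the number of arrays. Ages were compared with limma 3.58.1 (lmFit, eBayes; R 4.3.3), with Benjamini-Hochberg adjustment over 19938 genes, checked on simulated data. The genes and lists were chosen with earlier results of these data known.

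Named were the 10 genes, per pathway list those that passed (at most 5) and the 2 smallest p-values, the largest fall and rise of the union, per marker list those that passed (at most 3) and the first gene, and the 3 profiles nearest to Slc8a1; Trpv6, Cnnm4, Lcn2, Wnk4, Emx1, Sall3, Acta2, Tagln and S100a10 were named after their values were seen. Alternatives were the methods' t-test, array weights, a filter below the 30th percentile, 3 scalings, 2 treatments of probe sets, trended robust eBayes, the replicate number as a block, leaving out each array or replicates 3 and 4 at 96 weeks and, chosen after seeing the data, replicates 1 to 4 without the block. Tables and promoter searches used Python 3.11.15.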

Additional observations from a re-analysis of the deposited data

Results flagged for a closer look

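In 46 named genes, which give 92 groups of values, 5 groups held a kidney far from the rest of its age, where chance gives about 1 in 20. Among the 10 genes this was Casr at 96 weeks, at 8.53 in replicate 2 while the next highest old kidney was at 8.33. Havcr1, the gene of the injury marker Kim1, was at 9.47 in replicate 3 at 96 weeks, with the next at 7.25. In the same kidney Wt1, a podocyte transcription factor, was the lowest of its age at 6.90 (6.895), with the next at 7.14. Pth, the gene of parathyroid hormone, was lowest in replicate 2 at 96 weeks at 3.10, with the next at 3.17. It was dim at both ages, with means of 3.29 at 14 weeks and 3.16 at 96 weeks, and this gap too is small. Lrp2, the gene of megalin, was highest in replicate 1 at 14 weeks at 12.693, while the other 3 young kidneys were at 12.690, a gap of no practical size.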

How the results depend on the processing

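Of the alternative log2 fold changes of the 10 genes, 184 kept sign and side of the threshold. Slc8a1 kept its sign but lost its call in 15 of 21 settings, and Trpv5 gained one without replicate 3 at 96 weeks. Signs turned in 10 values, none of which had passed. With quantile normalization run again and after cyclic loess they turned for Casr (-0.055 and -0.024) and Cnnm2 (-0.022 and -0.0056). Without replicates 3 and 4 at 96 weeks they turned for Egf (0.073) and Pvalb (0.24). Leaving out each array gave -0.0058 to 0.061 for Casr, -0.020 to 0.13 for Cnnm2, -0.20 to 0.026 for Egf and -0.46 to 0.095 for Pvalb, with the sign turned by replicate 2, 1, 3 and 3 at 96 weeks. The number of the 10 that passed, 1, became 0 under the methods' t-test, array weights, the mean of probe sets, the fit over all probe sets and without replicates 3 and 4 at 96 weeks, and was 0 to 1 when each array was left out (1 without replicate 1 at 14 weeks, Slc8a1, and 1 without replicate 3 at 96 weeks, Trpv5). Past 1.5-fold there was 0 with the mean of probe sets and without replicates 3 and 4, and 0 to 1 when each array was left out (0 without replicate 2 at 14 weeks). Of the 69 related genes, 5 passed, against 0 under the t-test, 8 with array weights, 8 with the dim filter, 3 after quantile normalization run again, 2 after cyclic loess, 2 over all probe sets, and 0 to 5 when each array was left out (0 without replicate 1 at 14 weeks). Of all genes 1339 passed, 367 (273 higher, 94 lower) under the t-test and 528 to 1135 when each array was left out (528 without replicate 4 at 14 weeks). With the replicate number as a block, on replicates 1 to 4, 0 of the 10 genes, 0 of the 69 and 368 of all genes passed, against 0, 2 and 827 on the same arrays without the block, chosen after seeing the data (the same arrays as without replicate 5 at 96 weeks). Deviations of same-numbered arrays correlated at 0.076, 0.021, -0.038 and 0.012, so the numbers were not used as pairs. Fewer arrays enter the fits that leave some out, and the cause of the other moves was not tested.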

Other observations

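The genes whose values over the 9 arrays lay nearest to those of Slc8a1, after centring each gene, were Scel, the gene of sciellin (root mean square distance 0.16 on the log2 scale), Csta2, a cystatin A family gene (0.17), and Thrsp, a gene of lipid synthesis (0.18). They were chosen for a profile like that of Slc8a1, which was lower in the old kidneys. Their own log2 fold changes, -0.52 for Scel, -0.60 for Csta2 and -0.76 for Thrsp, therefore follow from the choice and are given as a description. None of them passed (limma adjusted p = 0.052, 0.12 and 0.056). Csta2 was dim, with means of 5.11 at 14 weeks and 4.51 at 96 weeks, below the array medians of 6.22 to 6.29.

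Of the other cell types, 1 of 6 intercalated cell markers fell, the proton pump subunit Atp6v0d2 (log2 fold change -0.28, limma adjusted p = 0.029), and 1 of 4 podocyte markers fell, Wt1 (-0.37, adjusted p = 0.024). None passed limma of 8 proximal tubule markers (1 with an unadjusted p under 0.05), 6 endothelial markers (0), 5 adipocyte markers (1), 6 of skeletal muscle and nerve (1) and 2 of parathyroid and thyroid tissue (1). Pth of the last list had a mean of 3.29 at 14 weeks and 3.16 at 96 weeks, where the medians of the arrays over all probe sets lay between 6.22 and 6.29.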
